A study of Drosophila melanogaster with 22 samples.

Results

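The tubulin genes of Drosophila melanogaster were followed in anterior ovarioles, the front part of the egg-producing tube. The germarium, with its germline and follicle stem cells, lies there together with young egg chambers. The family comprised 10 of the 17478 annotated genes, chosen by symbol in the deposited annotation: 4 alpha-tubulin, 4 beta-tubulin and 2 gamma-tubulin genes. All 22 libraries came from virgin females of the strain w1118, a laboratory strain with a mutation of the white gene, and the labels name no transgene or treatment. Each library is polyA RNA from 30 to 50 pooled ovarioles of flies kept at 25 °C. There were 2 libraries each at days 1 and 4 after eclosion and 3 each at days 2, 3, 5, 6, 7 and 8. Days 1 to 4 (n = 10) were dissected up to stage 8 of oogenesis and days 5 to 8 (n = 12) up to stage 7, so age and dissection cannot be told apart between these age series.

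Microtubules are polymers of alpha- and beta-tubulin heterodimers, and gamma-tubulin sits in ring complexes that nucleate them. In fly oogenesis they carry RNAs and proteins from nurse cells to the oocyte, position the oocyte nucleus and build the meiotic spindle. Flies have general isotypes, expressed in most tissues (alphaTub84B, alphaTub84D, betaTub56D, gammaTub23C), and maternal isotypes made in the female germline for the oocyte and early embryo (alphaTub67C, gammaTub37C). The other members are known mainly from particular somatic tissues or from the testis.

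A library held 1146915 to 9781870 gene counts in the first age series and 2975582 to 4634327 in the second. Levels are given in CPM, counts scaled to a common library total with TMM factors. With unscaled library totals, 3 counts were worth 0.307 to 2.62 CPM. Day 2 replicate 1, day 3 replicate 2 and day 4 replicate 2 were almost without spike-in RNA and stood apart from the rest. Day 4 replicate 1 stood apart the other way, with 43.5% of its gene and spike-in counts on spike-in against at most 11.95% in any other library. Summed CPM of 6 germline markers was 4421 to 5133 in days 1 to 4 and 4662 to 6199 in days 5 to 8. edgeR called 3 of the 6, nos and vas lower and osk higher in days 5 to 8, with log2 fold changes of -0.50, -0.27 and 0.23 (edgeR adjusted p = 0.0202, 0.0483 and 0.0350). The 10 eggshell markers were all called lower in days 5 to 8 (summed CPM 534 to 2285 against 40.1 to 309), as were 11 of the 13 tested muscle markers (795 to 2872 against 634 to 1072), while 2 of 5 follicle cell markers were called higher (480 to 892 against 758 to 1059). The part of these shifts in the results below was not tested. Within days 1 to 4, the follicle cell sum was 480 to 612 CPM in the 3 libraries almost without spike-in. In the other 7 it was 628 to 892 CPM. In bulk tissue, fewer cells of a type and less RNA per cell cannot be told apart.

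The genes lie apart in the genome (coordinates of FlyBase release 6, from the deposited annotation), and no annotated gene overlaps any of them. alphaTub84B (FBgn0003884) is on chromosome arm 3R from 7086599 to 7088839, plus strand, and alphaTub84D (FBgn0003885) on 3R from 7530753 to 7532732, plus strand. Both encode alpha-tubulins from coding sequences of 1350 bases, and the proteins are nearly identical. The sources used here do not say how reads matching both copies were assigned, and the split between these 2 genes is uncertain. alphaTub67C (FBgn0087040) is on 3L from 9681268 to 9683370, plus strand, and alphaTub85E (FBgn0003886) on 3R from 9731221 to 9733250, minus strand. Among the beta-tubulin genes, betaTub56D (FBgn0003887) and betaTub60D (FBgn0003888) are on 2R. betaTub97EF (FBgn0003890) is on 3R from 27967008 to 27988384, minus strand, and betaTub85D (FBgn0003889) on 3R from 9408383 to 9410282, minus strand. gammaTub37C (FBgn0010097) is on 2L from 19183863 to 19185726, minus strand, and gammaTub23C (FBgn0260639) on 2L from 2972891 to 2974858, plus strand.

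Tubulin RNA in the anterior ovariole was mostly that of a pair of general isotypes. Per exon length, betaTub56D had the highest mean level at 905 ± 128 CPM per kb (SD, n = 22), followed by alphaTub84B at 670 ± 140 CPM per kb. Among the 8024 genes that passed the filter on low counts, these levels ranked 103 and 116. The maternal isotype alphaTub67C came next at 156 ± 18.4 CPM per kb, above alphaTub84D at 120.4 ± 18.2 CPM per kb, and betaTub60D followed at 65.1 ± 16.7 CPM per kb. The maternal gammaTub37C had 26.6 ± 6.11 CPM per kb, betaTub97EF 22.9 ± 5.19 CPM per kb and gammaTub23C 11.4 ± 1.95 CPM per kb.

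Most neighbours in this order kept their places in every library. Each gene from betaTub56D down to betaTub60D was above the next in 22 of 22 libraries, and betaTub97EF was above gammaTub23C in 21 of 22. gammaTub37C and betaTub97EF were the neighbours that did not differ beyond their spread: gammaTub37C was the higher in 13 of 22 libraries. A total of 8 of the 10 members passed the filter on low counts. The members that did not were alphaTub85E and betaTub85D, described at the end.

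**Figure D1:**
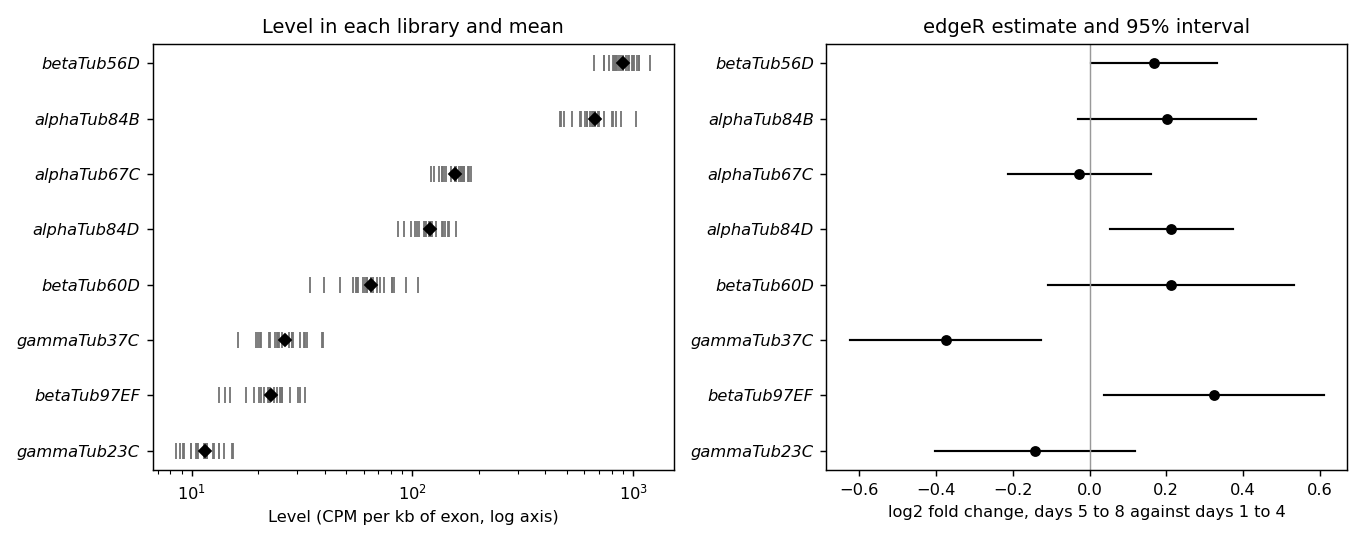
Left, level of each of the 8 tested tubulin genes in CPM per kb of exon (log axis), with a tick per library (n = 22) and a diamond at the mean. Right, edgeR log2 fold change of days 5 to 8 against days 1 to 4 with its 95% interval. Mean levels run from 905 CPM per kb for betaTub56D to 11.4 CPM per kb for gammaTub23C, and the estimates from -0.37 for gammaTub37C to 0.32 for betaTub97EF.

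Shares within each class are again per exon length. Those of alphaTub84B and betaTub56D varied little between libraries, at 66.0 to 75.9% and 88.9 to 94.6%. Other shares varied more for their size, with alphaTub67C at 12.6 to 22.4%, betaTub60D at 3.30 to 8.43% and gammaTub37C at 56.2 to 78.7%. alphaTub84B made up 70.4 ± 2.68% of alpha-tubulin RNA (SD, n = 22), alphaTub67C 16.8 ± 2.17% and alphaTub84D 12.8 ± 1.40%. betaTub56D made up 91.1 ± 1.52% of beta-tubulin RNA, betaTub60D 6.56 ± 1.33% and betaTub97EF 2.32 ± 0.456%. Maternal and general isotypes thus held different places in the alpha and gamma classes: alphaTub67C was the minor partner of alphaTub84B, whereas gammaTub37C made up 69.4 ± 5.69% of gamma-tubulin RNA and exceeded gammaTub23C in 22 of 22 libraries. Per length of the union of exons, summed alpha-tubulin RNA was 0.952 ± 0.0733 times summed beta-tubulin RNA, with a range of 0.796 to 1.06. This ratio depends on the length used. The union of betaTub56D is 1869 bases but its transcripts have 1596 and 1701, whereas alphaTub84B has 1752 for both. Transcript lengths would thus give a lower ratio, which was not computed. Summed alpha- and beta-tubulin RNA was 43.3 ± 6.88 times the gamma-tubulin RNA in days 1 to 4 (n = 10) and 60.8 ± 15.2 times in days 5 to 8 (n = 12), ranges of 33.6 to 54.5 and 42.4 to 103 that overlapped.

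The comparison of days 5 to 8 with days 1 to 4 asks whether tubulin RNA differs between the age series. By edgeR's quasi-likelihood test 0 of 8 tested members were called, against 708 of 8024 genes (8.82%) over the whole table. At an unadjusted p under 0.05 there were 4 of 8 members (alphaTub84D, betaTub56D, betaTub97EF and gammaTub37C) and 1900 of all genes. DESeq2 called 2 members, alphaTub84D as higher and gammaTub37C as lower in days 5 to 8, against 884 of all tested genes (11%). The median estimate of the 8 members was 0.19 on the log2 scale, against -0.02 for all tested genes, and 5 estimates were above 0 and 3 below.

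Of the general alpha-tubulin genes, alphaTub84B had 853 and 930.4 CPM at day 1, 1083, 1116 and 1144 CPM at day 2, 819, 1211 and 1081 CPM at day 3, and 1222 and 1402 CPM at day 4. It had 1165, 1296 and 1814 CPM at day 5, 1056, 1176 and 1549.5 CPM at day 6, 1016, 1157 and 1423 CPM at day 7, and 1004, 829 and 1470.5 CPM at day 8. The lowest library was at day 3 and the highest at day 5, and the ranges of the age series overlapped broadly. Between the series its log2 fold change was 0.20 ± 0.11 (SE), with an edgeR adjusted p of 0.280. alphaTub84D had a lowest, median and highest level of 169, 218 and 289 CPM in days 1 to 4 (n = 10) and of 181, 246 and 311 CPM in days 5 to 8 (n = 12). Its day 5 libraries, at 279 to 311 CPM, included the highest, and day 1 had 169 and 196 CPM. Its log2 fold change was 0.21 ± 0.08 (edgeR adjusted p = 0.0902), with an adjusted p of 0.0471 by DESeq2 and of 0.0354 by edgeR without day 8 replicate 2. Over all 22 libraries left out in turn, edgeR's adjusted p lay between 0.0354 and 0.211.

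The maternal alphaTub67C, whose protein is needed for meiosis and the first embryonic divisions, was the steadiest member. It had 267 and 219 CPM at day 1, 299, 256 and 241 CPM at day 2, 202, 263 and 292 CPM at day 3, and 226 and 288 CPM at day 4. It had 230.1, 269 and 277 CPM at day 5, 214, 272 and 274 CPM at day 6, 255, 251 and 269.6 CPM at day 7, and 221, 196 and 278 CPM at day 8. No day stood apart from the others. Its SD of log2 CPM over the 22 libraries was 0.176, lower than that of all but 5.78% of the 8024 tested genes, whose median was 0.340. For betaTub56D and alphaTub84D, also abundant, this share was 12.7% and 17.2%. The comparison was not matched for level, in which alphaTub67C ranked 355 of the 8024 per exon length. The log2 fold change between the age series was -0.03 ± 0.09, with a 95% interval of -0.21 to 0.16 and an edgeR adjusted p of 0.901. Its sign changed to 0.06 without the 3 libraries almost lacking spike-in.

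Among the beta-tubulin genes, betaTub56D, the general isotype, had 1375 and 1239.7 CPM at day 1, 1553, 1537 and 1619 CPM at day 2, 1376, 1859.8 and 1783 CPM at day 3, and 1678 and 1886 CPM at day 4. It had 1844, 1982 and 2231 CPM at day 5, 1742, 1562 and 1995 CPM at day 6, 1521, 1650.4 and 1778 CPM at day 7, and 1573, 1459 and 1951 CPM at day 8. As for alphaTub84B, the highest library was at day 5. Its log2 fold change between the series was 0.17 ± 0.08, with an edgeR adjusted p of 0.196.

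betaTub60D, known from developing muscle and other mesoderm, was the most variable of the tested members between libraries. In days 1 to 4 its lowest, median and highest levels were 99.7, 152 and 204 CPM, and in days 5 to 8 they were 86.7, 173 and 266 CPM; both the lowest and the highest library were of day 5. The log2 fold change was 0.21 ± 0.15 (edgeR adjusted p = 0.441), while the summed muscle markers went the other way, with means of 1522 and 835 CPM. betaTub97EF, a somatic isotype, spanned 24.7 to 48.1 CPM (median 40.1) before day 5 and 32.9 to 60.8 CPM (median 47.0) later, with a log2 fold change of 0.32 ± 0.14 (edgeR adjusted p = 0.153). For both genes the ranges of the age series overlapped.

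The maternal gammaTub37C, the gamma-tubulin of the female germline, had the largest estimate in size between the age series. It had 38.8 and 52.3 CPM at day 1, 63.8, 46.3 and 63.1 CPM at day 2, 40.02, 45.1 and 54.3 CPM at day 3, and 39.5 and 53.0 CPM at day 4. It had 46.4, 50.2 and 26.3 CPM at day 5, 36.7, 32.5 and 31.7 CPM at day 6, 33.3, 33.5 and 46.7 CPM at day 7, and 36.3, 40.5 and 41.8 CPM at day 8. The highest libraries were of day 2 and the lowest was of day 5, and the age series overlapped, with medians of 49.3 and 36.5 CPM. Its log2 fold change was -0.37 ± 0.12, with a 95% interval of -0.62 to -0.13 and an edgeR adjusted p of 0.0533, just above the threshold of 0.05. DESeq2 gave an adjusted p of 0.0433. edgeR's adjusted p was 0.0421 without day 2 replicate 2, 0.0488 and 0.0398 without replicates 1 and 2 of day 5, and 0.0378 without day 7 replicate 3, and over all 22 libraries left out in turn it lay between 0.0378 and 0.192. Without the 3 libraries almost lacking spike-in, which had 63.8, 45.1 and 53.0 CPM, the log2 fold change was -0.29 ± 0.14 (edgeR adjusted p = 0.205).

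gammaTub23C, the general gamma-tubulin of centrosomes, spanned 16.3 to 28.5 CPM (median 22.4) before day 5 and 15.8 to 28.0 CPM (median 19.6) later. The ranges coincided almost entirely. Its log2 fold change was -0.14 ± 0.13 (edgeR adjusted p = 0.538). Only 24 to 223 counts per library lay behind these values, the lowest depth among the tested members.

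**Figure D2:**
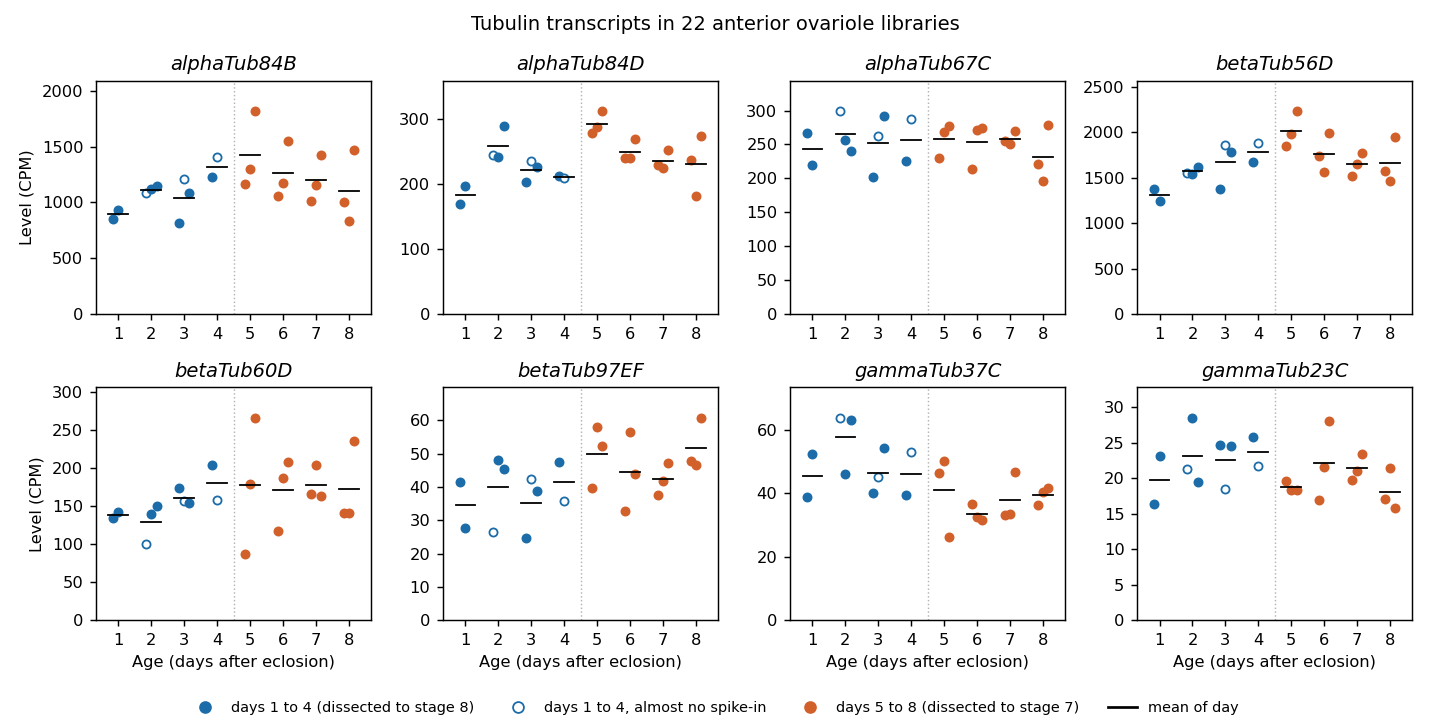
Level in CPM of the 8 tested tubulin genes by day after eclosion, with a point per library and a bar at the mean of each day. Open points mark the 3 libraries almost without spike-in, and the dotted line separates days 1 to 4 from days 5 to 8. alphaTub84B and betaTub56D had their highest library at day 5, at 1814 and 2231 CPM, and alphaTub67C stayed between 196 and 299 CPM.

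Within the age series, tests for any difference among days called 0 of 8 members in days 1 to 4, against 0.0249% of all genes, and 0 of 8 in days 5 to 8, against 0.0125%, with edgeR. At an unadjusted p under 0.05 there was 1 member in days 1 to 4, alphaTub84D, and 0 in days 5 to 8. Of all tested genes, 650 and 248 were under that value. DESeq2 called 0 members in either series, against 0.685% and 0.212% of all genes. The day means of alphaTub84B were 892, 1114, 1037 and 1312 CPM at days 1 to 4, and 1425, 1260.4, 1199 and 1101 CPM at days 5 to 8. Those of betaTub56D were 1307, 1570 and 1673 CPM at days 1, 2 and 3, 1782 CPM at day 4 and 2019 CPM at day 5, and 1766, 1650 and 1661 CPM at days 6 to 8. The means of these general isotypes were lowest at day 1 and highest at day 5, days of different age series. For alphaTub84B the high mean of day 5 rested on replicate 3, at 1814 CPM. Replicates 1 and 2, at 1165 and 1296 CPM, lay below the mean of day 4. Day 1 also held the highest sums of muscle markers, 2858 and 2872 CPM, and the part of this in its low means was not tested. Within days 5 to 8, replicate 3 was the highest library on 4 of 4 days for alphaTub84B, alphaTub84D, alphaTub67C and betaTub56D alike, on 3 of 4 for betaTub60D and on 2 of 4 for betaTub97EF, gammaTub37C and gammaTub23C.

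Day 4 against day 1, with 2 libraries each, gave estimates above 0 for 8 of 8 members. Their median was 0.25, against 0.01 for all tested genes. The estimates come from the same libraries and are not independent of each other. edgeR called 0 members, against 0.0374% of all genes, while 921 genes and 2 members had an unadjusted p under 0.05. Of these, alphaTub84B had a log2 fold change of 0.56 ± 0.26 (edgeR adjusted p = 0.415) and betaTub56D 0.45 ± 0.18 (edgeR adjusted p = 0.378). Both libraries of day 4 were above both of day 1 for each gene. Both libraries of day 4 also stood apart in spike-in, as given above, and replicate 1 held the highest sum of neuron markers, 100.8 CPM. The part of this in the estimates was not tested. Day 8 against day 5, with 3 libraries each, gave estimates below 0 for 7 of 8 members. The median was -0.11, against -0.01 for all tested genes, and edgeR called 0 members and 0% of genes. The estimates were -0.37 ± 0.21 for alphaTub84B and -0.28 ± 0.15 for betaTub56D (edgeR adjusted p of 1 for both), and for both genes the libraries of these days overlapped. At an unadjusted p under 0.05 there was 1 member, alphaTub84D, and 234 genes in all. DESeq2 called 0 members in either comparison, against 0.162% and 0.0125% of all genes.

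The difference between these changes was tested directly, on the same libraries. edgeR called 0 of 8 members and 0% of all genes, while 3 members and 807 genes had an unadjusted p under 0.05, and DESeq2 called 0 members and 0.0249% of all genes. All 8 estimates were below 0, with a median of -0.35 against -0.01 for all tested genes. The estimate was -0.93 ± 0.33 for alphaTub84B (unadjusted p = 0.0105, edgeR adjusted p = 0.411) and -0.73 ± 0.24 for betaTub56D (unadjusted p = 0.00528, edgeR adjusted p = 0.393). At this number of libraries, no difference in the course of the general isotypes was detectable after adjustment.

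Ratios within a library do not depend on the scaling between libraries. The 4 ratios were each tested 3 times, between the age series and among the days of each series, and p-values were adjusted over the 12 tests. The maternal alphaTub67C had 0.259 ± 0.0417 times the RNA per length of alphaTub84B in days 1 to 4 and 0.223 ± 0.0297 times in days 5 to 8. The day 1 libraries held the highest ratio, 0.340, and day 5 the lowest, 0.165. The difference of -0.21 on the log2 scale had a permutation p of 0.0304, two-sided, and an adjusted p of 0.122, and 10 of 12 libraries of days 5 to 8 lay below the median of days 1 to 4. On each of days 5 to 8 the ratio was lowest in replicate 3.

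The maternal gammaTub37C had 2.59 ± 0.651 times the RNA of gammaTub23C in days 1 to 4 and 2.20 ± 0.562 times in days 5 to 8. The difference was -0.23 on the log2 scale, with a permutation p of 0.161 and an adjusted p of 0.484. Neither ratio of a maternal to a general gene thus passed the threshold after adjustment. Against each other, alphaTub67C had 5.29 ± 0.883 times the RNA of gammaTub37C in days 1 to 4 and 6.90 ± 1.74 times in days 5 to 8, a log2 difference of 0.36 (permutation p = 0.0125, adjusted p = 0.122). This ratio was added after the values had been seen.

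The ratio of alphaTub84D to alphaTub84B was 0.184 ± 0.0278 in days 1 to 4 and 0.182 ± 0.0221 in days 5 to 8 (adjusted permutation p = 0.971). Among days 1 to 4 its exact permutation p was 0.0229, with an adjusted p of 0.122. Day 4 was the lowest day, with ratios of 0.132 and 0.153 in the libraries that stood apart in spike-in, and the libraries of days 1 to 3 lay between 0.172 and 0.223. Of the 12 tests, none had an adjusted p under 0.05.

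**Figure D3:**
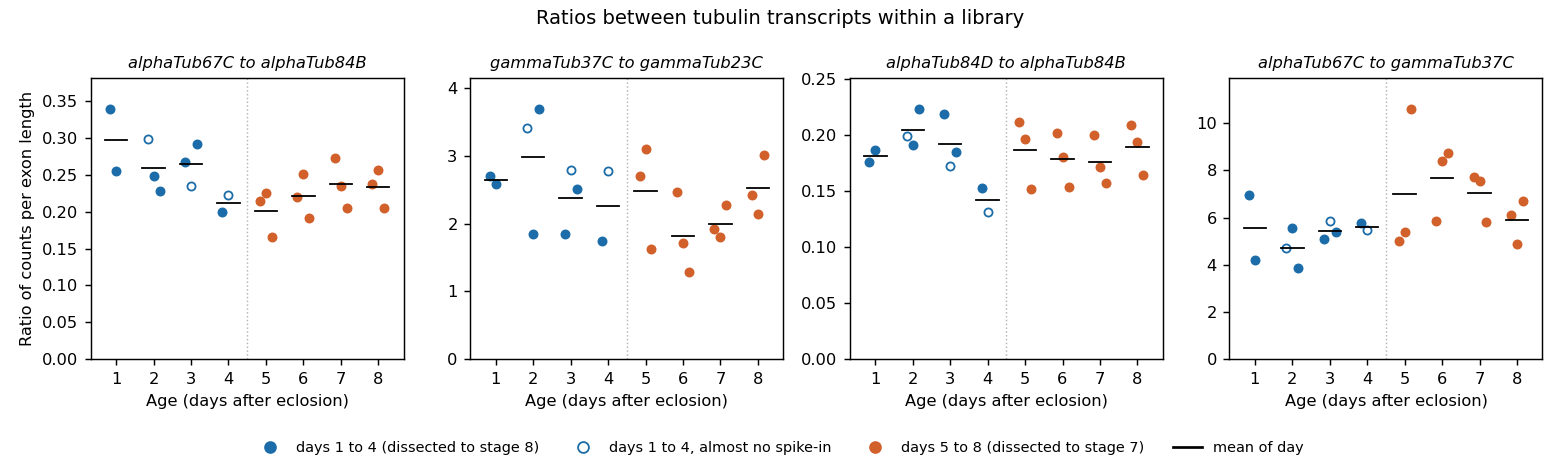
Ratio of counts per exon length between pairs of tubulin genes by day, with a point per library and a bar at the mean of each day. Open points mark the 3 libraries almost without spike-in. The ratio of alphaTub67C to alphaTub84B averaged 0.259 in days 1 to 4 and 0.223 in days 5 to 8, and that of alphaTub67C to gammaTub37C 5.29 and 6.90, with overlapping libraries in every panel.

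The members also differed in which other genes were most like them over the libraries. Likeness was measured as Pearson's r of log2 CPM over the 22 libraries. It is a description only, since the values share library and depth and genes are scaled together. For each member the highest of 8023 values were picked, so some of their height comes from the picking. The genes most like alphaTub84B were CG5010 (r = 0.946), Cctgamma (r = 0.918) and CG3226 (r = 0.905). Those most like betaTub56D were CG5525 (r = 0.904), alphaTub84B (r = 0.881) and CG5010 (r = 0.872). Cctgamma and CG5525 encode subunits of the cytosolic chaperonin CCT, the ring-shaped complex that folds new alpha- and beta-tubulin and actin.

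For the other 6 tested members other genes ranked highest. For alphaTub84D these were Rpn7, a subunit of the proteasome lid (r = 0.829), CG2004 (r = 0.799) and CG9925 (r = 0.793). For alphaTub67C they were Rpn6, another lid subunit (r = 0.814), Adam (r = 0.809) and Sec61gamma, part of the channel into the endoplasmic reticulum (r = 0.807). nord (r = 0.787) and CG5346 (r = 0.752) were most like betaTub60D, and CG13252 (r = 0.781), stl (r = 0.768) and otk (r = 0.744) most like betaTub97EF. The maternal gammaTub37C was most like CG6927 (r = 0.817), Ntmt (r = 0.771) and CG4880 (r = 0.758), and genes like gammaTub23C included CR18275 (r = 0.710) and CG5555 (r = 0.693). CR18275 was near the floor, with a mean of 2.23 CPM where 3 counts were worth 0.307 to 2.62 CPM. With the means of both age series removed, the closest gene was unchanged for alphaTub84B (CG5010, r = 0.943), alphaTub84D (Rpn7, r = 0.813) and betaTub56D (CG5525, r = 0.885). For the others it became CG8635 for alphaTub67C (r = 0.826), CG6841 for betaTub60D (r = 0.808), sel for betaTub97EF (r = 0.716), CG7049 for gammaTub37C (r = 0.718) and Ppcs for gammaTub23C (r = 0.758).

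After these values had been seen, all 8 listed chaperonin genes were compared with each member. Their r with alphaTub84B ran from 0.801 to 0.918, and 8 of 8 were among the 100 most alike of 8023 genes. With betaTub56D they ran from 0.684 to 0.904, with 7 of 8 among the 100. The range was 0.562 to 0.764 for alphaTub84D, with 5 of 8 among the 100. For alphaTub67C it was 0.369 to 0.666, for betaTub60D 0.436 to 0.587 and for betaTub97EF 0.358 to 0.616. For these members 1, 0 and 3 of 8 were among the 100. The order of alphaTub84D and alphaTub67C depended on the measure: with the means of both series removed their median r was 0.601 and 0.637, and as ranks 0.578 and 0.623. With those means removed, 1 of 8 was among the 100 for alphaTub84D, 3 for alphaTub67C and 0 for betaTub97EF. Over the 22 libraries, with no means removed, both gamma-tubulin genes lay below the others: r was -0.434 to -0.142 for gammaTub37C and -0.106 to 0.0525 for gammaTub23C. The median over all tested genes was between -0.0236 and 0.00753 for every member.

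The likeness of chaperonin genes to the general isotypes was also computed in other ways. With the means of both series removed, r was 0.799 to 0.919 for alphaTub84B and 0.674 to 0.885 for betaTub56D. Without the 2 libraries farthest from the median of the tubulin gene, it was 0.718 to 0.874 for alphaTub84B and 0.514 to 0.840 for betaTub56D. As ranks (Spearman's rho, 22 libraries) it was 0.738 to 0.879 and 0.645 to 0.876. With the means of each replicate number within an age series removed, it was 0.650 to 0.871 and 0.510 to 0.847. Computed that way, r was 0.337 to 0.602 for alphaTub84D and 0.301 to 0.633 for alphaTub67C. It was 0.0601 to 0.352 for betaTub60D and 0.0391 to 0.269 for betaTub97EF. Both of these beta-tubulin ranges then overlapped that of gammaTub23C, at -0.111 to 0.272. The negative values of gammaTub37C were less stable, at -0.103 to 0.0508 with the series means removed. With only the series means removed, gammaTub23C, with the fewest counts of the tested members, had 0.0415 to 0.323. This overlapped betaTub97EF, at 0.246 to 0.460, so gammaTub23C was not clearly apart from every other member.

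**Figure D4:**
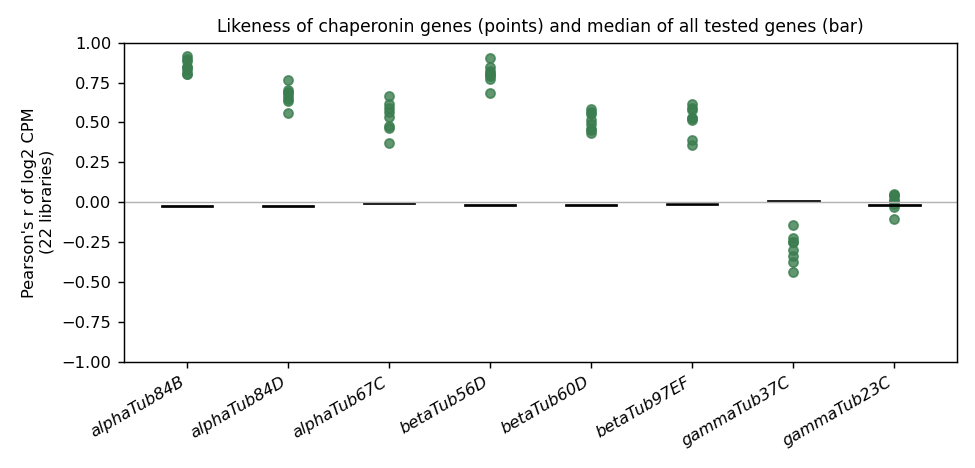
Pearson's r of log2 CPM over 22 libraries between each of 8 chaperonin genes and each of the 8 tested tubulin genes (points), with the median r over all tested genes as a bar. The points lie at 0.801 to 0.918 for alphaTub84B, at 0.684 to 0.904 for betaTub56D and at -0.434 to -0.142 for gammaTub37C.

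Genes that act on tubulin were counted in the comparison of days 5 to 8 with days 1 to 4, in which edgeR called 4.06% of all tested genes higher and 4.76% lower. An edgeR unadjusted p under 0.05 was held by 23.7% of all tested genes. Of 6 tested genes for the ring complex that holds gamma-tubulin, 0 were called by edgeR, with a median log2 fold change of 0.07, and 1 had an unadjusted p under 0.05. Its most abundant member by CPM, Grip84, had 246 ± 25.0 CPM in days 1 to 4 and 273 ± 28.5 CPM in days 5 to 8 (edgeR adjusted p = 0.248). Of 18 tested genes for tubulin folding, 8 had an unadjusted p under 0.05, and the median was 0.13. edgeR called 2 of them higher and 0 lower. Both encode chaperonin subunits: Cct5 rose from 594 ± 103 to 762 ± 160 CPM (log2 fold change 0.38 ± 0.11, edgeR adjusted p = 0.0348) and Tcp-1zeta from 497 ± 63.5 to 615 ± 92.1 CPM (0.32 ± 0.09, edgeR adjusted p = 0.0246). For each, the libraries of the age series overlapped.

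Of 5 tested genes for tubulin modification, 1 was called lower: Sirt2, a deacetylase that acts on tubulin in mammals, fell from 17.9 ± 4.43 to 10.97 ± 2.15 CPM (log2 fold change -0.72 ± 0.16, edgeR adjusted p = 0.00700). Of 21 tested microtubule-associated proteins, 1 was called higher, Jupiter, which binds along microtubules, from 415 ± 43.7 to 489.8 ± 37.6 CPM (edgeR adjusted p = 0.0350). For the augmin complex, which branches new microtubules from existing ones, 0 of 8 genes were called by edgeR and 1 had an unadjusted p under 0.05, and for the centrosome 0 of 12 were called and 2 had one. The most abundant were dgt6, at 34.1 ± 8.83 and 38.0 ± 5.63 CPM (edgeR adjusted p = 0.361), and Cp190, at 318 ± 33.5 and 318 ± 24.6 CPM (edgeR adjusted p = 0.995). The medians of these 4 lists were -0.28, -0.06, -0.09 and -0.10 on the log2 scale, against -0.02 for all tested genes. For modification 2 of 5 genes had an unadjusted p under 0.05, and for microtubule-associated proteins 4 of 21.

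Of 21 tested motor genes, 2 were called higher and 2 lower, with a median log2 fold change of 0.00, and 8 had an unadjusted p under 0.05. The kinesin-like nod, needed for the segregation of chromosomes without crossovers in female meiosis, fell from 48.5 ± 10.4 to 33.7 ± 2.82 CPM (log2 fold change -0.50 ± 0.09, edgeR adjusted p = 0.00145). Dhc64C, the dynein heavy chain, fell from 536 ± 168 to 384 ± 49.7 CPM (-0.49 ± 0.14, edgeR adjusted p = 0.0336), whereas sw, the dynein intermediate chain, rose from 56.5 ± 11.5 to 73.7 ± 8.44 CPM (0.41 ± 0.10, edgeR adjusted p = 0.0130). The second gene called higher was BicD, which links cargo to dynein. None of the genes in these 7 lists was called by edgeR in any comparison within the age series.

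Both members known from the testis were at or near the limit of detection. alphaTub85E, which is also known from chordotonal organs and some support cells, had 0 counts in 20 of 22 libraries, 2 counts in day 7 replicate 2 and 1 count in day 8 replicate 1. The summed CPM of 4 cilium and chordotonal markers was 0 to 5.66 in days 1 to 4 and 0.964 to 8.10 in days 5 to 8. betaTub85D, the beta-tubulin of male germ cells and the sperm tail, had counts in 6 of 22 libraries, with 6 in day 1 replicate 1, 5 in day 2 replicate 1, 3 each in day 4 replicate 2 and day 5 replicate 3, and 2 each in day 5 replicate 1 and day 6 replicate 3. Day 1 replicate 1, with 4.08 CPM of betaTub85D, also held the highest sum of 7 testis markers, 12.9 CPM, with 4 of the 7 detected. The sum was at most 1.62 CPM in the other libraries, and the testis marker djl was at 0 in all 22. The part of such RNA in the value of betaTub85D was not tested.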

How the data were processed

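PolyA, strand-specific libraries were measured by sequencing of 76 nt reads. The deposited values are raw counts per annotated feature, and per the submitters' processing notes the authors used HTSeq 0.6.1p1, HISAT2 2.0.1, SAMtools 0.1.2 and CASAVA 1.8.2. The 1572 transposon insertion features (1.46 to 4.11% of counts) and 96 spike-ins stayed out of library sizes and tests.

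Counts were tested here with edgeR 4.0.16 in R 4.3.3 (TMM, quasi-likelihood F-test, 1 coefficient per day, 22 libraries, minimum count 10, Benjamini-Hochberg over 8024 genes, threshold 0.05). Residual degrees of freedom were 14. On simulated counts (7792 genes tested), days 5 to 8 against days 1 to 4 recovered 72% of 1.5-fold and 94% of 2-fold changes. CPM use TMM library sizes, and CPM per kb the union of annotated exons. Ratios were tested by permutation (100000 resamples, or exact among days). DESeq2 1.42.0 was an alternative.

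All members were described. Up to 3 called genes per list with the largest change and a mean of at least 5 CPM, or else the most abundant, and the 3 genes most like each member were named (2 each for betaTub60D and gammaTub23C, the others not reported here). BicD was named after its value was seen. The members and lists were chosen with earlier results of these data known. The symbols of 7 of 16 listed modification genes matched the annotation. Per the labels the replicates are biological. Floors and counts cover counting error only.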

Additional observations from a re-analysis of the deposited data

How the results depend on the processing

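The count of members called in days 5 to 8 against days 1 to 4 was 0 with edgeR, 2 with DESeq2 and 0 to 1 with each library left out in turn. In the other 5 comparisons it was 0 under every alternative that was run. The log2 fold change of alphaTub67C reversed to 0.063 without the 3 libraries almost lacking spike-in, and ran from -0.064 to 0.031 with each library left out. The log2 ratio of alphaTub84D to alphaTub84B reversed to 0.027 with means of days in place of libraries, and ran from -0.055 to 0.030 with each library left out. The cause was not tested. Of the values recomputed under the alternatives, 829 kept their direction and their side of the threshold, 678 of them with a single library left out. A total of 7 passed it anew, 6 counts moved and 18 reversed. No call could be lost, since edgeR on all 22 libraries called no member and no ratio test passed the threshold. With each library left out, the log2 fold change of gammaTub37C ran from -0.42 to -0.30 and that of alphaTub84D from 0.18 to 0.26.

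The labels do not say that replicate numbers pair the samples. The median correlation of deviations from the day means was 0.0492 over 71 pairs of the same number, 25 of them above 0.1, and -0.0227 over 140 pairs of different numbers, 22 of them above 0.1. Within days 5 to 8 it was 0.118 over 18 pairs, 10 of them above 0.1, against -0.0633 over 36 pairs, which is a hint from the data of a shared number there. With the replicate block, edgeR called 0 members in every comparison, and 685 genes in all between the age series. The number of genes called between the series, 708 with edgeR and 884 with DESeq2, was 1157 without the 3 libraries almost lacking spike-in and 403 without day 1 replicate 1. Among days 1 to 4 it was 2 with edgeR and 55 with DESeq2, and among days 5 to 8 it was 1 and 17.

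The fewest counts per library among the tested members lay behind gammaTub23C (24 to 223), betaTub97EF (29 to 277) and gammaTub37C (47 to 669), and alphaTub85E and betaTub85D did not pass the filter on low counts.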
